A study of Mus musculus with 18 samples.

Results

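RNA-sequencing counts of the spinal dorsal horn (DHSC) on the injected side were compared between replicates 4 to 6 and replicates 1 to 3 of every group. The members were taken from the replicate numbers in the sample labels. They were 9 libraries on each side, of 18 in all, with 3 libraries of each of the 3 groups on both sides. In the count table the same libraries carry numbers 27 to 35 (replicates 1 to 3) and 188 to 196 (replicates 4 to 6), so that the replicate sets also form separate library series. All animals were adult C57BL/6J mice, and all had received 2% formalin under the skin of the left hind paw and were sampled 2 h later, without an uninjected group. The groups were males, F1/proestrus females, which show a short quiescent interphase in the formalin test, and F2/metestrus females, with a longer interphase. Estrus stage had been read from vaginal smears. The labels give all 18 libraries a single protocol on poly(A) RNA and do not say what distinguishes the library series, so that animals, dissection, RNA extraction, library preparation and sequencing cannot be told apart as sources of a difference between them.

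RNA sequencing measures a gene by the fragments that its transcripts yield. Long transcripts give more fragments than short ones, and the recovery of a fragment depends on its share of guanine and cytosine bases (GC content), through priming, amplification and cluster formation. When such dependences are alike in all libraries they cancel in a comparison, and when they are not, genes move together by GC content or length whatever their function. The dorsal horn itself holds excitatory and inhibitory interneurons, astrocytes, oligodendrocytes and their precursors, microglia and vessels, and receives the central axons of sensory neurons whose cell bodies lie outside the cord, in the dorsal root ganglia. Neuronal channels, receptors and adhesion molecules tend to be encoded by long transcripts, and ribosomal and mitochondrial proteins by short ones.

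Total counts on genes ranged from 73590509 to 125724156 per library, with a median of 109449604 in replicates 1 to 3 and 92057841 in replicates 4 to 6. The 37 mitochondrially encoded genes are listed at 0 in every library, so that their share could not be compared. A gene with 3 counts had 0.0240 CPM (counts scaled to a common library size) in the largest library and 0.0404 CPM in the smallest, and this floor covers counting error only. The p-values measure the spread between these libraries. Markers of both classes of dorsal horn neurons were measured in all libraries. One library stood apart in cell content: F1/proestrus replicate 5 had 126 CPM of *Scn10a*, a sodium channel of nociceptive sensory neurons, and 133 CPM of *Avil*, an actin-binding protein of the same ganglia, where the highest values among all other libraries were 0.153 and 0.907 CPM. Results that rest on this library are given with and without it.

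Between the replicate sets, 6751 of 26075 genes tested differed at an adjusted p under 0.05 (25.9%) by edgeR's quasi-likelihood test with the 3 groups as terms. Of these, 3570 genes were higher in replicates 4 to 6 (13.7% of those tested) and 3181 were lower (12.2%). The differences were mostly small, with a median absolute log2 fold change of 0.26 among the genes called, or 1.19-fold. A difference of at least 1.5-fold was called for 694 genes (2.66%), of which 153 were higher (0.587%) and 541 lower (2.07%). For 1066 genes (4.09%) the CPM values of the 9 and the 9 libraries did not overlap, 447 of them higher in replicates 4 to 6 (1.71%) and 619 lower (2.37%). The genes called higher had a median exonic length of 2256 bases and a median exonic GC content of 53.7%. Those called lower had medians of 6882 bases and 46.7%, against 2933 bases and 49.0% over all genes tested. Without F1/proestrus replicate 5 the numbers were 3658 higher and 3176 lower.

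The 3 groups share no library, and most genes called in one of them had the same sign in the others. Within F1/proestrus alone 77 of 24514 genes passed the test (0.314%), 21 higher (0.0857%) and 56 lower (0.228%). Within F2/metestrus alone 781 of 24160 passed (3.23%), 235 higher (0.973%) and 546 lower (2.26%). Within males alone 1198 of 24428 passed (4.90%), 276 higher (1.13%) and 922 lower (3.77%). Of the 781 genes called in F2/metestrus, 763 had the same sign in males (97.7%), where 70.7% of all genes tested did, and 482 were also called in males, or 61.7% of the F2/metestrus and 40.2% of the male calls. Of the 1198 male calls, 1184 had the same sign in F1/proestrus (98.8%, against 71.2% of all genes). Over the 17815 genes above 1 CPM, the log2 fold changes of a pair of groups correlated across genes with Spearman's rho of 0.641 to 0.665, and with 0.567 to 0.609 after correction for GC content and length. Genes are not independent replicates, and no p is given. An interaction of replicate set and group was called for 0 of 26075 genes (0%) by edgeR's test, with 916 genes at an unadjusted p under 0.05, and for 0 genes by DESeq2, with 1147 at an unadjusted p under 0.05.

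Values summed over each library showed where the counts had moved. The count-weighted exonic length, the mean length of the genes on which reads fell, was 5679 ± 44.5 bases (SD, n = 9) in replicates 1 to 3, with a lowest value of 5630, a median of 5671 and a highest of 5764. In replicates 4 to 6 it was 5430 ± 78.2 bases (SD, n = 9), with a lowest value of 5298, a median of 5450 and a highest of 5531. Every library of replicates 4 to 6 was thus below every library of replicates 1 to 3 (two-sided exact permutation test within groups, p = 0.00025, the smallest that 8000 arrangements can give, and 0.00225 after adjustment over 9 values). The share of counts on the 88 cytosolic ribosomal protein genes was 0.127 ± 0.00661% in replicates 1 to 3 and 0.153 ± 0.0168% in replicates 4 to 6 (SD, n = 9 each, exact permutation test, p = 0.0005, adjusted p = 0.00225). Genes with at least 10 counts numbered 24686 ± 300.5 in replicates 1 to 3 and 23811 ± 510.1 in replicates 4 to 6 (SD, n = 9 each, exact permutation test, adjusted p = 0.00375), beside total counts of 107896586 and 94608409 on average (exact permutation test, adjusted p = 0.0515).

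The count-weighted exonic GC content was 49.8 ± 0.234% in replicates 1 to 3 and 50.1 ± 0.153% in replicates 4 to 6 (SD, n = 9 each, exact permutation test, adjusted p = 0.0207). For each library the deviation of every gene's log2 CPM from its mean over the 18 libraries was regressed on GC content, over 26057 genes. The slope averaged -0.0611 ± 0.0984 per 10 percentage points in replicates 1 to 3 and 0.0611 ± 0.0728 in replicates 4 to 6 (SD, n = 9 each, exact permutation test, adjusted p = 0.0191). Values of the sets overlapped: F2/metestrus replicate 5 had a slope of -0.0748 and male replicate 2 one of 0.1167. The slope on length averaged 0.0096 ± 0.0153 per doubling in replicates 1 to 3 and -0.0096 ± 0.0174 in replicates 4 to 6 (SD, n = 9 each, exact permutation test, adjusted p = 0.0409). With both properties in a single regression per library, chosen after the data were seen, the difference in GC slope was 0.1178 and that in length slope -0.0085, with an unadjusted p of 0.0105 for GC content and 0.259 for length by the exact permutation test. The difference in length slope did not pass the test once GC content was in the regression. Over genes with at least 10 counts in every library the separate length slopes differed by -0.0387 (exact permutation test, unadjusted p = 0.001). The shares of counts in the 10 highest genes (5.46% against 5.66%) and outside protein-coding genes (6.74% against 6.55%) differed at an adjusted p of 0.0489 each in the exact test. With 1 library left out in turn, each of these shares no longer passed the test in 13 of 18 repeats, and the separate length slope in 9 of 18.

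**Figure D1:**
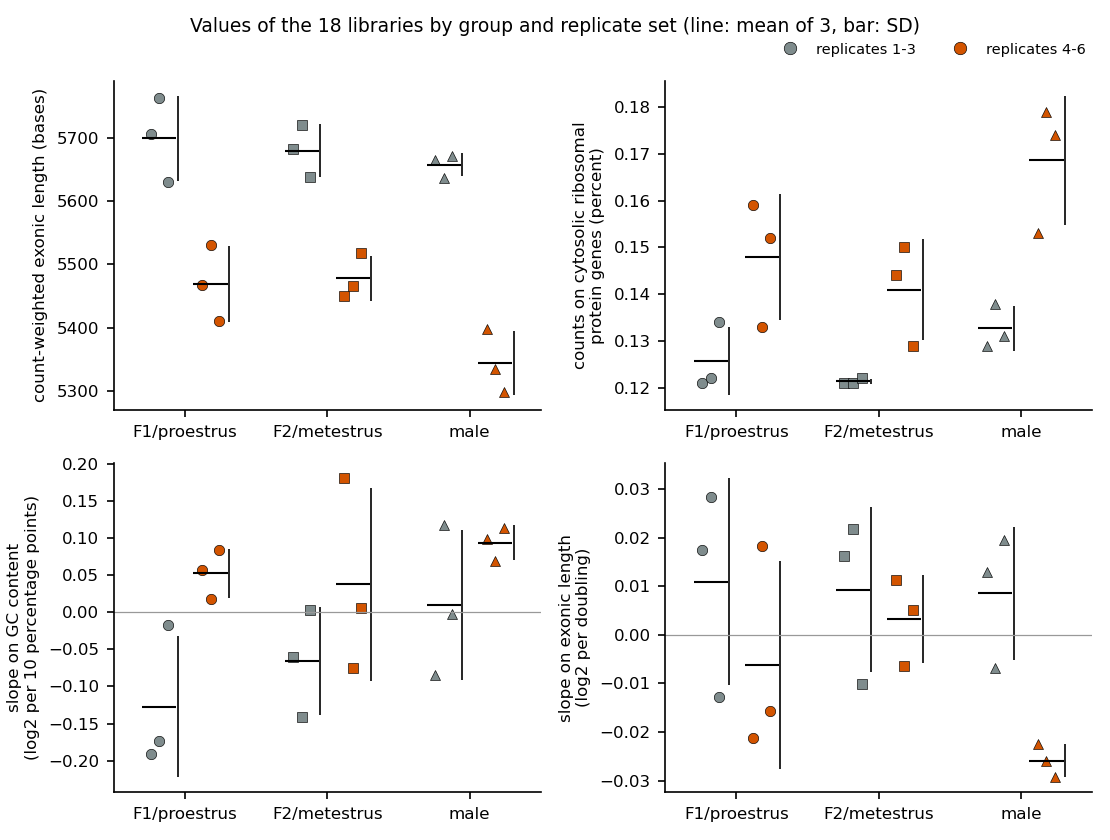
The 18 libraries are plotted by group (x axis) and replicate set (grey circles, squares and triangles for replicates 1 to 3, orange for replicates 4 to 6), with the mean of 3 libraries as a line and the SD as a bar. The panels give the count-weighted exonic length in bases, where the sets do not overlap, the percent of counts on cytosolic ribosomal protein genes, and the slopes of log2 CPM deviations on GC content and on log2 length, where they do.

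Across the 16806 protein-coding genes tested, the difference followed both properties in steps. In the decile of genes with the lowest GC content (33.3% to 41.4%), the median log2 fold change of replicates 4 to 6 against 1 to 3 was -0.09. In the decile with the highest GC content (57.6% to 76.5%) it was 0.13. The share called higher went from 2.44% in the lowest decile to 33.3% in the highest, and the share called lower from 21.6% to 6.01%. Among protein-coding genes length gave a steeper course, whereas over all genes tested the extreme deciles differed by 0.253 for GC content and by -0.172 for length. The median of protein-coding genes was 0.18 in the shortest decile (up to 1586 bases) and -0.19 in the longest (9586 bases and more). In the longest decile 52.4% of genes were called lower and 2.20% higher, and in the shortest 1.96% lower and 34.2% higher. The median log2 CPM was 5.21 in the longest and 1.80 in the shortest decile. The shares called in these deciles were thus not taken at equal counts. The highest decile of GC content differed from the lowest by 0.303 in F1/proestrus, 0.197 in F2/metestrus and 0.167 in males (log2). For length the corresponding difference was -0.352, -0.274 and -0.465.

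**Figure D2:**
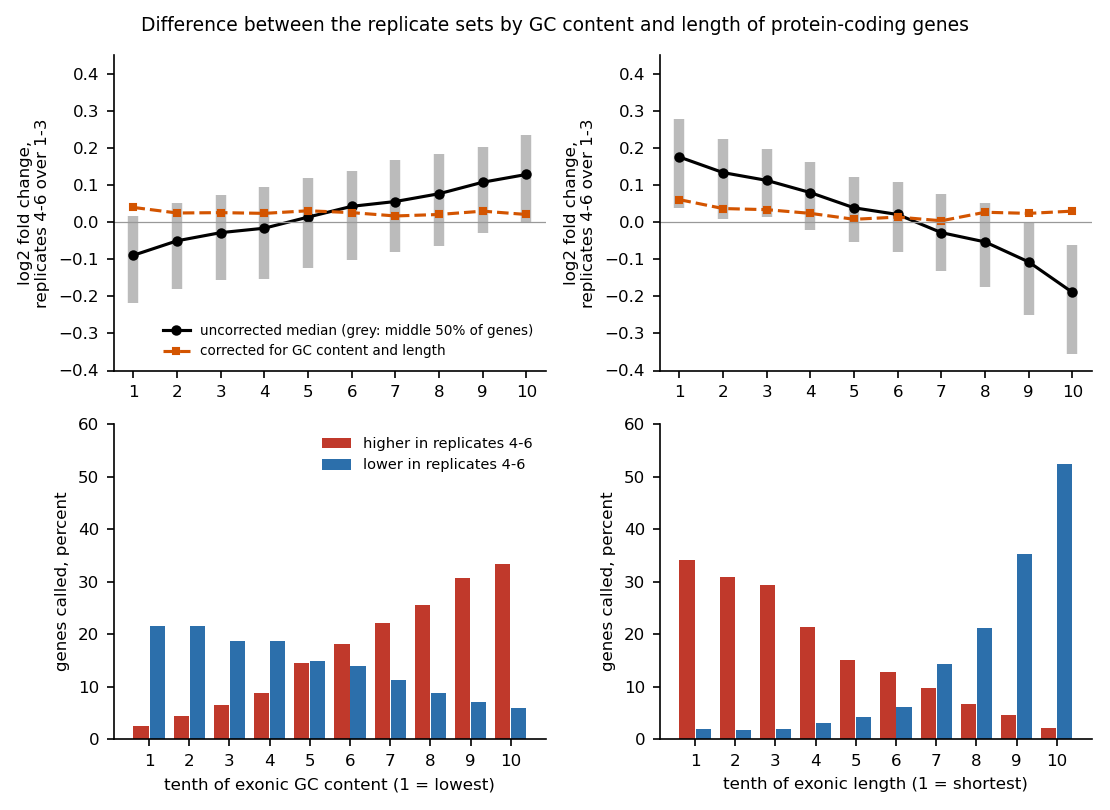
Upper panels give the median log2 fold change (replicates 4 to 6 over replicates 1 to 3) in deciles of exonic GC content (left) and exonic length (right) of 16806 protein-coding genes, with the middle 50% of genes as grey bars and the corrected medians as orange squares. Lower panels give the percent of genes called higher (red) and lower (blue), which reaches 33.3% higher in the GC-richest and 52.4% lower in the longest decile.

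GC content and length are themselves related across protein-coding genes (Spearman's rho -0.334), and were therefore also crossed in quintiles. Length held within every quintile of GC content: among the GC-poorest genes the median went from 0.04 in the shortest to -0.155 in the longest quintile, and among the GC-richest from 0.21 to -0.19. GC content made the most difference among short genes. In the shortest quintile the share called higher went from 8.82% of the GC-poorest to 46.6% of the GC-richest genes, whereas in the longest quintile between 41.4% and 47.6% were called lower in each quintile of GC content. Across all protein-coding genes the log2 fold change had a Spearman's rho of 0.325 with GC content, -0.492 with length and -0.010 with mean expression. These correlations are over genes that share the same 18 libraries and are descriptions.

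**Figure D3:**
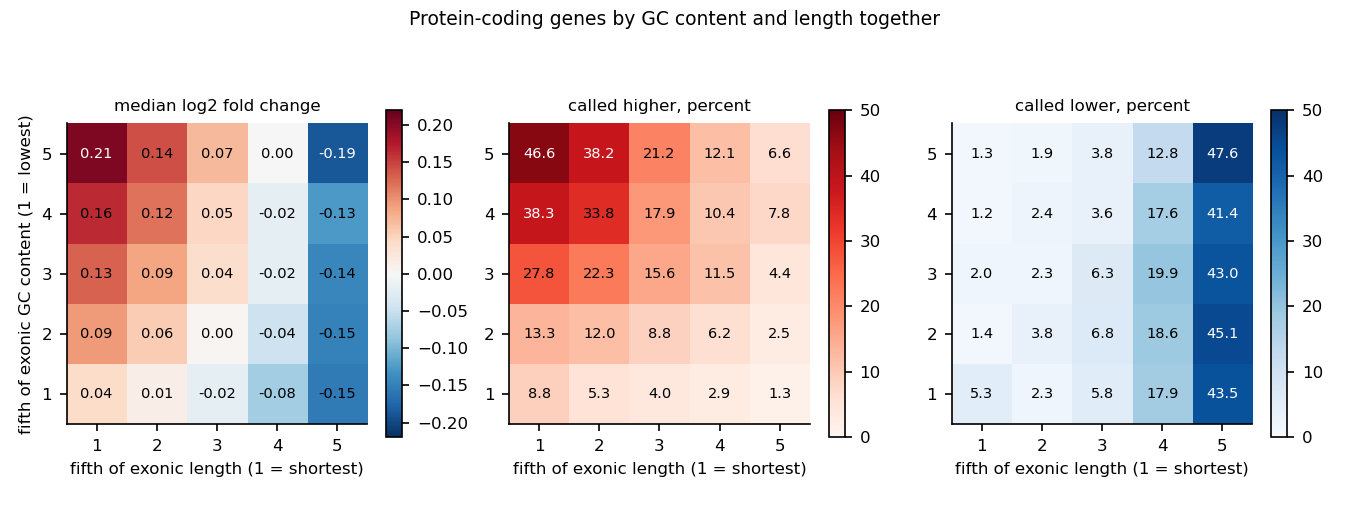
Protein-coding genes are divided into quintiles of exonic length (x axis) and exonic GC content (y axis). The cells give the median log2 fold change of replicates 4 to 6 over replicates 1 to 3 and the percents called higher and lower, with the highest medians at upper left (short and GC-rich) and the lowest on the right (long).

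When each library was corrected with a smooth curve for GC content and length, 5604 genes were called (21.5%), 2897 higher (11.1%) and 2707 lower (10.4%). Of the 6751 uncorrected calls, 3941 remained in the same direction (58.4%, or 70.3% of the corrected calls), 30 were called in the opposite direction, and 1633 corrected calls were not among the uncorrected. With GC content alone in the correction 6397 genes were called (24.5%), 3343 higher (12.8%) and 3054 lower (11.7%). The median log2 fold change of all genes was 0.0012 uncorrected and -0.0059 after the full correction. Both fits scale the libraries to a common level, so that these medians are no test of the correction. The 2112 genes called lower under both had a median length of 5281 bases, and the 1829 called higher under both one of 2703 bases.

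The 10 genes with the largest differences in each direction, among genes without overlap and with a mean of at least 1 CPM, were all still called after the correction. Those higher in replicates 4 to 6 had a median length of 1942 bases, and those lower one of 10863 bases. To show what such transcripts look like in composition, 120 bases from the middle of the coding sequence are printed for the protein-coding genes of this selection with the lowest and the highest exonic GC content, with G and C in capitals (5′ to 3′, GENCODE vM21 transcripts on GRCm38). *Dmxl1*, lower still with 36.6% GC, is not shown. *Usp9x* (chromosome X, plus strand, 39.5% GC over 15051 exonic bases) is shown from coding base 3772, with 54 of 120 bases G or C, and *Xpr1* (chromosome 1, minus strand, 41.3% over 17880 bases) from coding base 982, with 51. *Lama5* (chromosome 2, minus strand, 59.9% over 11388 bases) is shown from coding base 5518, with 74, and *Tmsb10* (chromosome 6, minus strand, 61.0% over 1276 bases) from coding base 7, with 63. The first 3 were lower in replicates 4 to 6 and the last was higher. *Lama5* is long and GC-rich at once.
Usp9x: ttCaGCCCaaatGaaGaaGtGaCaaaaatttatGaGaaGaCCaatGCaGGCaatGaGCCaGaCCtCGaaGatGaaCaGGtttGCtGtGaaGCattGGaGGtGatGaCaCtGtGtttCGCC
Xpr1: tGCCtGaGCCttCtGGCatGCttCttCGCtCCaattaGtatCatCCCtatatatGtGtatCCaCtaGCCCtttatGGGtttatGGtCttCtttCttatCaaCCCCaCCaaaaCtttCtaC
Lama5: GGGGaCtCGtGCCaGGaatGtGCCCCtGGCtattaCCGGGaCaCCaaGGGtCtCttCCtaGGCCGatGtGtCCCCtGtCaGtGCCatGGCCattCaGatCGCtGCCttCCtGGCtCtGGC
Tmsb10: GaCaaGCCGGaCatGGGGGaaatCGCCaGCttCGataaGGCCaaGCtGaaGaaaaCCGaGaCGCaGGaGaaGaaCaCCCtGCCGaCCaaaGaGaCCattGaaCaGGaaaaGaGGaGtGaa

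Among genes without overlap and with a mean of at least 1 CPM, the largest difference upward was that of *Bc1*, a small non-coding RNA of neuronal dendrites that RNA polymerase III transcribes and that represses translation. It lies on the plus strand of chromosome 7 (144914470 to 144914637 of GRCm38) and is 168 bases long. Its whole sequence is shown because of its internal run of adenines, which is not a tail added after transcription. Runs of 4 or more A are in capitals.
Bc1: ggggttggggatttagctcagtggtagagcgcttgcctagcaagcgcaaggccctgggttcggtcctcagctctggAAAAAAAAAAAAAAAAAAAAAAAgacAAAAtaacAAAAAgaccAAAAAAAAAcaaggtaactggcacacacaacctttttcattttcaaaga

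*Bc1* had 0.214 (lowest), 0.410 (median) and 0.890 CPM (highest) in replicates 1 to 3, and 1.03, 2.22 and 3.34 CPM in replicates 4 to 6. All libraries of the second set were above all of the first, at counts of 20 to 396 per library. The log2 fold change was 2.09 (standard error 0.232, adjusted p = 3.10e-06), and 1.97, 2.28 and 2.03 in F1/proestrus, F2/metestrus and males. With an exonic GC content of 40.5% *Bc1* is short and GC-poor, and its corrected log2 fold change was also 2.09.

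*Nectin1*, an adhesion molecule of the immunoglobulin superfamily (chromosome 9, 43743984 to 43807461), had the smallest p of all genes tested. It was at 1.84, 2.03 and 2.63 CPM (lowest, median, highest) in replicates 1 to 3 and at 4.09, 4.75 and 5.21 CPM in replicates 4 to 6, without overlap. Its log2 fold change was 1.185 (standard error 0.0744, adjusted p = 2.91e-08) and 1.16 after correction, at a length of 5653 bases and a GC content of 59.1%. *Tmsb10*, which encodes an actin-sequestering thymosin, was at 2.51, 3.91 and 4.27 CPM in replicates 1 to 3 and at 6.09, 7.55 and 10.5 CPM in replicates 4 to 6. The sets did not overlap, and the fitted difference was 1.08 on the log2 scale (adjusted p = 8.61e-07). *Cotl1*, another actin-binding protein, was higher without overlap (23.3 ± 7.52 against 46.8 ± 5.93 CPM, SD, n = 9 each, log2 fold change 1.025, adjusted p = 7.59e-06). The alpha-tubulin gene *Tuba1c* (log2 fold change 0.73), the complex I subunit gene *Ndufs5* (0.80), the ribosomal protein gene *Rps19* (0.83), the pseudogene *Rpl10-ps5* (1.08), *Enc1*, an actin-associated protein of neurons (0.68), and *Setd1b*, a histone methyltransferase (0.71), complete the 10. *Rps19*, *Rpl10-ps5* and *Tmsb10* have near-identical copies elsewhere in the genome, among which unique mapping may divide or discard reads, and their values are uncertain for that reason. *Setd1b*, at 12068 bases, was the longest of the 10.

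Of the genes lower in replicates 4 to 6, *Xpr1*, a phosphate exporter (chromosome 1, 155275701 to 155417415), had the largest log2 fold change among those without overlap and with a mean of at least 1 CPM. It had 43.5, 69.1 and 80.2 CPM (lowest, median, highest) in replicates 1 to 3 and 22.3, 27.1 and 43.0 CPM in replicates 4 to 6. The sets came close without overlapping, at F1/proestrus replicate 3 (43.5 CPM) and F1/proestrus replicate 4 (43.0 CPM). The log2 fold change was -1.15 (standard error 0.118, adjusted p = 1.23e-06), and -0.84 after correction. *Fry*, a large microtubule-associated protein (chromosome 5, 150118645 to 150497753, 29729 exonic bases), was at 122 ± 6.72 CPM in replicates 1 to 3 and 67.4 ± 9.97 CPM in replicates 4 to 6 (SD, n = 9 each), with a highest value of 83.3 CPM in the second set and a lowest of 114 CPM in the first. It differed by -0.86 (standard error 0.0643, adjusted p = 1.12e-07) and by -0.58 after correction. *Usp9x*, an X-linked deubiquitinase, went from 161 ± 20.2 to 91.0 ± 14.6 CPM (SD, n = 9 each, log2 fold change -0.84, adjusted p = 3.51e-07). *Atm*, the kinase of the DNA damage response (-0.84), *Igf2r*, the receptor that sorts lysosomal enzymes (-0.81), *Zfyve9*, an endosomal adaptor of TGF-beta signalling (-0.84), *Dmxl1*, a regulator of the vacuolar ATPase (-0.88), *Lama5*, a laminin chain of basement membranes (-0.86), *Kbtbd11* (-0.77) and *Zbed6*, a zinc finger repressor encoded within another gene's intron (-0.85), are the others. All 10 were at least 5007 bases long, and after correction their log2 fold changes lay between -0.840 and -0.525.

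**Figure D4:**
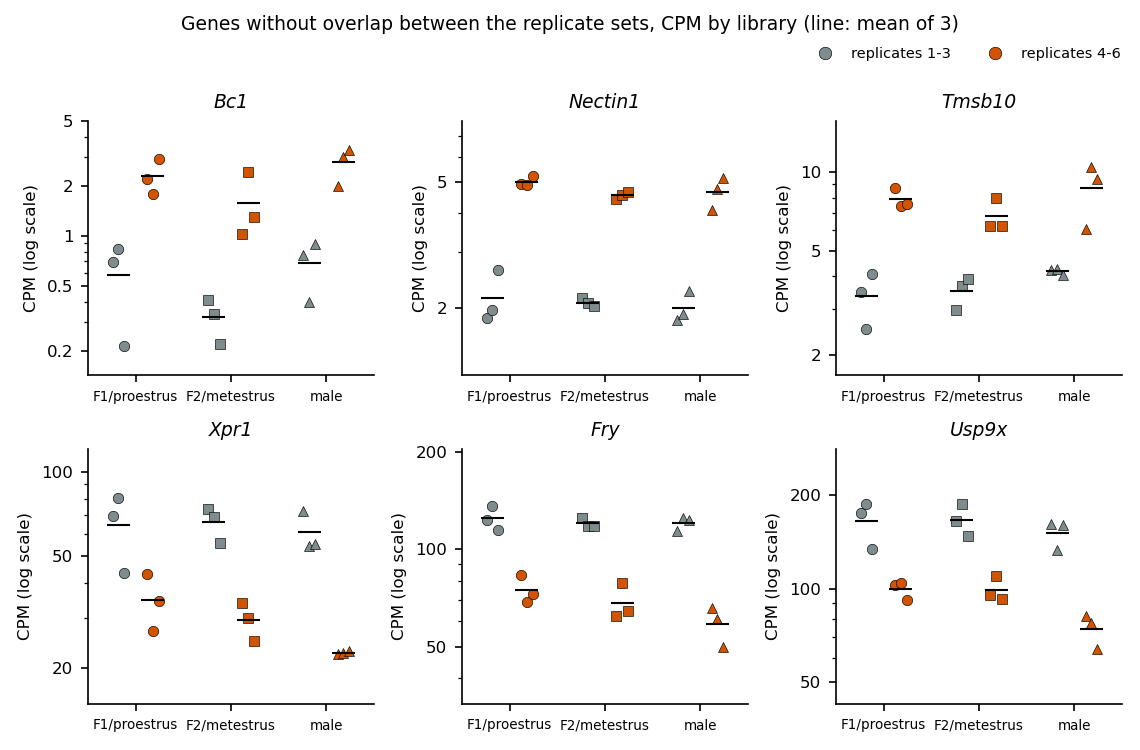
CPM on a log scale is plotted for each library, by group (x axis) and replicate set (grey for replicates 1 to 3, orange for 4 to 6, line for the mean of 3). *Bc1*, *Nectin1* and *Tmsb10* (upper row) are higher and *Xpr1*, *Fry* and *Usp9x* (lower row) lower in replicates 4 to 6 of all groups, without overlap over the 9 and the 9 libraries.

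Genes were then read by function and cell type, in 52 lists, of which 50 had tested members. In 29 of these the share called exceeded the 25.9% of all genes. Protein-coding genes alone had larger shares than all genes, with 16.6% called higher and 14.2% lower. A list of protein-coding genes can thus exceed 25.9% without standing out among such genes. More members were called higher than lower in 23 lists and more lower than higher in 14. After correction for GC content and length the median was closer to 0 in 36 lists, and it changed sign in 6.

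Among genes of protein synthesis, protein breakdown and respiration more members were called higher than lower in replicates 4 to 6, and the rest did not pass the test. Of 86 tested genes of cytosolic ribosomal proteins, 55 were called higher and 0 lower (64.0%), with a median log2 fold change of 0.27, beside 0.0012 over all genes. *Rpl18* went from 9.21 ± 0.506 to 13.4 ± 1.80 CPM (SD, n = 9 each, log2 fold change 0.54, adjusted p = 2.79e-06), without overlap. *Rps19* had 2.64, 2.96 and 3.38 CPM (lowest, median, highest) in replicates 1 to 3 and 4.21, 5.03 and 6.91 CPM in replicates 4 to 6. After correction 42 were still higher, with a median of 0.18. Of the 78 genes of mitochondrial ribosomal proteins, 49 were called higher and 0 lower, with a median of 0.15, and 30 were called after correction, with a median of 0.10. *Mrps21* (0.49, adjusted p = 2.61e-05) and *Mrpl43* (0.28, adjusted p = 4.96e-05) were among those with the smallest p. The 101 nuclear genes of oxidative phosphorylation held 65 called higher and 1 lower, with a median of 0.20, and 45 and 2 after correction, with a median of 0.13. *Ndufs5* had 6.92, 8.82 and 9.81 CPM in replicates 1 to 3 and 12.1, 14.6 and 18.8 CPM in replicates 4 to 6. The cytochrome oxidase subunit gene *Cox6a1* (702 bases, 62.8% GC) had a log2 fold change of 0.37 before and 0.19 after correction.

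The proteasome genes had 31 of 54 called higher and 2 lower, with a median of 0.145, and 22 and 1 after correction, with a median of 0.086. *Psmb4*, a subunit of the catalytic core, was at 99.2 ± 3.47 and 119 ± 6.17 CPM in the sets (SD, n = 9 each, log2 fold change 0.26, adjusted p = 6.08e-06), without overlap. Small nuclear ribonucleoprotein genes, whose products build the spliceosome, had 14 of 33 called higher and 2 lower, among the former *Sf3b4* (0.39) and *Snrpd2* (0.44), and here the median moved little with the correction (0.14 for both). Glycolysis genes had 9 of 17 higher and 0 lower, with *Pgam1* (0.31) and *Tpi1* (0.28) without overlap, and again 9 after correction. Cholesterol synthesis had 7 of 22 higher and 0 lower, among them *Fdps* (0.42 before and 0.40 after correction). Tubulins and neurofilaments had 10 of 20 higher and 1 lower (median 0.207), and 7 and 1 after correction (median 0.088). Of the Hox genes, which set the position of spinal neurons along the body axis, 16 of 34 were higher and 0 lower (median 0.21), as in *Hoxa7* (0.26) and *Hoxc9* (0.34). After correction 9 were higher and 1 lower, with a median of 0.13. The replication-dependent histone genes, short and mostly lacking poly(A) tails, had 9 of 46 called higher and 0 lower (19.6%, against 13.7% of all genes called higher), with a median of 0.14. After correction 5 were higher, with a median of 0.05. *Hist1h4d* was among them, with a log2 fold change of 1.02.

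The longest list by median went the other way. Of 24 chromatin modifiers, with a median length of 12334 bases, 16 were called lower and 2 higher, with a median of -0.19. *Kmt2c*, a histone methyltransferase of 20291 bases, had 57.5, 64.7 and 69.2 CPM (lowest, median, highest) in replicates 1 to 3 and 39.5, 43.3 and 51.2 CPM in replicates 4 to 6. It differed by -0.52 on the log2 scale (adjusted p = 2.30e-07), and by -0.24 after correction. *Arid1b*, a subunit of a chromatin remodeller, kept more of its difference (-0.50 before, -0.34 after), and *Kmt2a* was no longer called (-0.32 before, -0.09 after, adjusted p = 0.237). Over the list the correction left 9 lower and 6 higher, and a median of -0.05.

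Genes of neuronal receptors and channels were called lower more often than higher. Of 25 glutamate receptor genes 15 were called lower and 1 higher, with a median of -0.17. The kainate receptor gene *Grik3* had 18.1, 20.8 and 24.5 CPM in replicates 1 to 3 and 10.8, 13.2 and 15.5 CPM in replicates 4 to 6 (log2 fold change -0.67, standard error 0.0697, adjusted p = 1.45e-06). It remained at -0.58 after correction, whereas the NMDA receptor gene *Grin3a* went from -0.29 to -0.08 (adjusted p = 0.112). The metabotropic receptor gene *Grm5* was at -0.425 before and -0.23 after. In the list 7 were lower and 0 higher after correction, with a median of -0.08. Of 40 sodium and calcium channel genes 15 were lower and 4 higher (median -0.13). The voltage-gated sodium channel genes *Scn1a* (-0.34), *Scn2a* (-0.40) and *Scn3a* (-0.42) were among the lower ones, at 41.9%, 42.1% and 40.5% GC and 11146, 12732 and 12459 bases. After correction they were at -0.13, -0.17 and -0.17, the last with an adjusted p of 0.0922. Of 93 potassium channel genes 19 were lower and 11 higher, with *Kcnk9*, a leak channel, at -0.515 (124 ± 8.63 against 87.6 ± 12.4 CPM, SD, n = 9 each, adjusted p = 8.20e-07).

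GABA and glycine receptor genes had 9 of 23 lower and 0 higher, but 7 lower and 4 higher after correction. *Glra1*, the main alpha subunit of adult glycine receptors, was short among the genes that were lower. With 2414 bases and 52.7% GC it had 33.4, 47.3 and 61.1 CPM in replicates 1 to 3 and 18.6, 25.5 and 38.3 CPM in replicates 4 to 6. Its log2 fold change was -0.84 (standard error 0.110, adjusted p = 1.61e-05), and -0.93 after correction. *Gabrb2* (-0.34) and *Gabbr1* (-0.30) were both at -0.23 after correction, and both were still called. Synaptic adhesion and scaffold genes had 10 of 23 lower and 1 higher, with a median of -0.12, but after correction 3 lower and 6 higher, with a median of 0.06. In this list *Dlg2*, a postsynaptic scaffold, kept its sign (-0.45, then -0.16), and the receptor phosphatase *Ptprd* and the neuroligin *Nlgn1* went from -0.26 and -0.22 to 0.06 and 0.05 (adjusted p = 0.405 and 0.484). The sign of this list's median and of *Ptprd* and *Nlgn1* thus depended on the correction.

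The 409 tested zinc finger proteins of the Zfp series, mostly transcriptional repressors, had 85 called lower and 28 higher. The share called, 27.6%, was near the 25.9% of all genes. Its directions were uneven, whereas over all genes 12.2% were lower and 13.7% higher. The median log2 fold change was -0.09, with a positive value for 116 of 409. After correction 62 were lower and 21 higher, with a median of -0.04. *Zfp445* (-0.50) and *Zfp106* (-0.50) were among those with the smallest p. Collagens had 8 of 44 lower and 0 higher (18.2%), with *Col6a6* at -1.25 (1.07 ± 0.310 against 0.450 ± 0.173 CPM, SD, n = 9 each, adjusted p = 0.000367). Clustered protocadherins had 1 of 58 called in each direction (3.45%), the lowest share of the functional lists with members called. The splicing factors of the SR and hnRNP families had 5 of 39 in each direction and a median of 0.00, and after correction 12 higher and 4 lower.

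**Figure D5:**
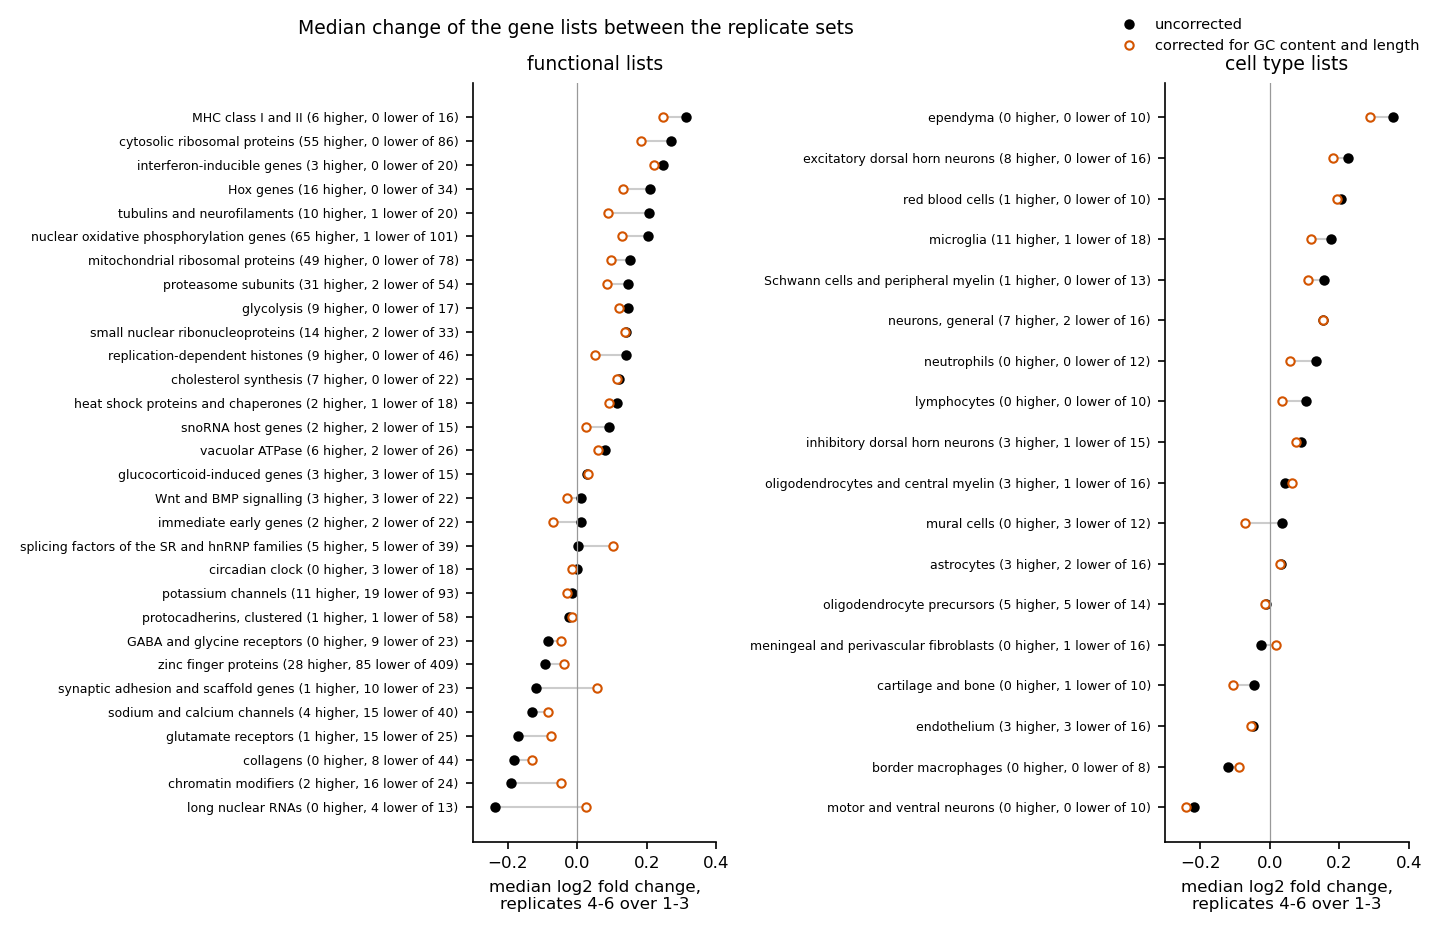
Each row is a gene list, functional (left) or of a cell type (right), with its median log2 fold change between the replicate sets before (black) and after (orange, open) correction for GC content and length, and the number of members called before correction in the row's name. Ribosomal, respiratory and MHC genes lie at the top and chromatin modifiers, receptors and long nuclear RNAs at the bottom. The lists of sensory ganglion neurons and skeletal muscle, with medians of 1.15 and -0.84, are left out of the plot because they change with single libraries.

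Cell type markers were read in the same way. In bulk tissue fewer cells of a type and less RNA per cell cannot be told apart, and in 7 of the 20 cell type lists genes were called in both directions. Of the 16 general neuronal markers 7 were higher and 2 lower. *Uchl1*, a neuronal ubiquitin hydrolase (1632 bases, 59.2% GC), had 242, 271 and 309.8 CPM (lowest, median, highest) in replicates 1 to 3 and 348, 371 and 449.8 CPM in replicates 4 to 6 (log2 fold change 0.47, adjusted p = 5.06e-06). *Map2*, the dendritic microtubule-associated protein (16449 bases, 43.6% GC), had 551, 608 and 637 CPM and then 352, 433 and 461 CPM (-0.52, adjusted p = 1.65e-07). Both were without overlap and in opposite directions. *Snap25*, a synaptic vesicle fusion protein, was at 3578 ± 287 and 3650 ± 204 CPM (SD, n = 9 each, 0.03, adjusted p = 0.694), and was called after correction (0.18, adjusted p = 0.00293). Summed over the list, the markers ranged from 15399 to 18347 CPM and from 14300 to 20100 CPM.

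Markers of excitatory dorsal horn neurons had 8 of 16 called higher and 0 lower, with a median of 0.23, and 5 after correction, with a median of 0.18. The neuropeptide genes *Cck* (46.5 ± 3.27 against 59.9 ± 11.5 CPM, SD, n = 9 each, log2 fold change 0.36, adjusted p = 0.00198), *Sst* (0.33, adjusted p = 0.00545) and *Tac1*, which encodes substance P (0.26, adjusted p = 0.00929), were among them. All 3 overlapped between the sets, and *Sst* was no longer called after correction (0.19, adjusted p = 0.0676). Markers of inhibitory dorsal horn neurons had 3 of 15 higher and 1 lower (26.7%, near the 25.9% of all genes), and 0 higher and 1 lower after correction. The lower one was *Slc6a5*, the glycine transporter of inhibitory terminals, at 326, 365 and 407 CPM in replicates 1 to 3 and 206, 283 and 325 CPM in replicates 4 to 6 (-0.425, adjusted p = 6.03e-05), without overlap and at -0.325 after correction. *Lbx1*, a factor that specifies dorsal neurons, was at 0.39 (adjusted p = 0.00620) and at 0.24 (adjusted p = 0.0778) after correction.

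Among glia, microglia had 11 of 18 markers higher and 1 lower (66.7%), with a median of 0.18 and, after correction, 8 higher and 1 lower, with a median of 0.12. *C1qa*, a subunit of the first complement component, had 22.4, 24.5 and 30.7 CPM in replicates 1 to 3 and 28.3, 33.2 and 43.3 CPM in replicates 4 to 6. The sets overlapped. The fitted difference was 0.41 on the log2 scale (adjusted p = 2.78e-06), and 0.25 after correction. *C1qc* (0.28, adjusted p = 0.000150) was called, and the purinergic receptor gene *P2ry12* was not (0.17, adjusted p = 0.151) but passed after correction (0.18, adjusted p = 0.0237). The C1q genes are short and GC-rich (59.5% in *C1qa*). Oligodendrocyte precursors had 5 of 14 higher and 5 lower, and 4 and 3 after correction. The higher ones, named after their values were seen, were *Sox10* (0.30), *Olig2* (0.23), *Bcas1* (0.19), *Olig1* (0.18) and *Cspg5* (0.14). After correction *Sox10*, *Olig2* and *Olig1* were no longer called, with adjusted p of 0.0958, 0.242 and 0.643. The call of *Olig1* was also lost without F2/metestrus replicate 2 or 4 (adjusted p up to 0.0583). The lower ones included *Tnr*, an extracellular matrix protein (12867 bases), with 32.1 to 42.3 CPM against 20.1 to 27.3 CPM (-0.65, adjusted p = 1.65e-07), and *Cspg4* (-0.39), *Ptprz1* (-0.335) and *Pdgfra* (-0.32). After correction *Ptprz1* was at -0.06 (adjusted p = 0.426) and the other lower genes named were still called.

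Oligodendrocytes had 3 of 16 higher and 1 lower, a share near the 25.9% of all genes, with *Opalin* at 0.32 and the transcription factor gene *Myrf*, of 8562 bases, at -0.28. *Mbp*, the abundant myelin basic protein gene, was at 0.10 (adjusted p = 0.131), and at 0.20 (adjusted p = 0.0115) after correction. Astrocytes had 3 of 16 higher and 2 lower, with *Sox9* at 0.33, the glutamine synthetase gene *Glul* at 0.18 and the growth factor receptor gene *Fgfr3* at -0.18, all still called after correction. Mural cell markers had 3 of 12 lower and 0 higher (against 12.2% of all genes called lower), namely *Notch3* (-0.65, adjusted p = 0.000296), *Abcc9* (-0.58, adjusted p = 0.000216) and *Pdgfrb* (-0.28, adjusted p = 0.00151), at -0.60, -0.44 and -0.29 after correction. The median of that list was 0.035 before and -0.071 after correction, so that before correction the members called and the median differed in sign. Endothelial markers had 3 higher and 3 lower of 16, with *Bsg*, of 1814 bases, higher (0.24) and the receptor gene *Flt1*, of 13504 bases, lower (-0.27, and -0.05 after correction). Of the markers of border macrophages, neutrophils, lymphocytes, ependyma and motor neurons 0 of 50 were called by edgeR's test, with 7 at an unadjusted p under 0.05, and 0 by DESeq2.

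Markers of tissue next to the dorsal horn moved with single libraries. Sensory ganglion neurons had 1 of 13 markers called, *Scn10a*, with a log2 fold change of 7.02 (adjusted p = 0.0135) that rests on F1/proestrus replicate 5. Without that library it was -0.71 (adjusted p = 0.565), and the median of the list went from 1.15 to -0.01. Summed over the list, the markers ranged from 69.2 to 167 CPM in replicates 1 to 3 and from 102 to 1139 CPM in replicates 4 to 6, with a median of 142. Skeletal muscle had *Myh1* called lower (-2.75, adjusted p = 0.0360), with 4.84 CPM in F1/proestrus replicate 2 and 3.48 CPM in male replicate 2 and at most 0.503 CPM in every other library. Its call was lost in 8 of the 18 fits without 1 library, namely without replicates 2, 4, 5 or 6 of F1/proestrus, 2 of F2/metestrus, or 2, 4 or 5 of males, and under limma and robust dispersions. Without F1/proestrus replicate 2 or male replicate 2, 0 muscle markers were called, and the median of -0.84 became -0.38 or -0.32. The part of these tissues in other results was not tested.

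Genes that react to stimulation or state were called in both directions. Of 22 immediate early genes, which neurons induce within minutes to hours of activity, 2 were higher and 2 lower (18.2%), with a median of 0.01. *Fos* was at 45.5 ± 6.45 and 48.4 ± 10.9 CPM (SD, n = 9 each, 0.08, adjusted p = 0.672). *Jund*, short and with 67.1% GC, was higher without overlap (59.3 to 80.3 against 82.3 to 105 CPM, 0.40, adjusted p = 2.18e-05), and *Fosl2* (-0.37, adjusted p = 0.00461) and *Nr4a3* (-0.46, adjusted p = 0.0226) were lower but not called after correction. *Nr4a3* also lost the call without F1/proestrus replicate 2, F2/metestrus replicate 1 or male replicate 1, with adjusted p up to 0.0592. Glucocorticoid-induced genes had 3 of 15 in each direction: the metallothionein gene *Mt2* was higher (0.41), and *Plin4* (-0.92, adjusted p = 0.00259) and *Zbtb16* (-0.55, adjusted p = 3.70e-05) were lower (-0.92 and -0.56 after correction). Clock genes had 3 of 18 lower (16.7%, against 12.2% of all genes) and 0 higher, and 2 lower after correction. Among the 3 were *Clock* (-0.42, and -0.16 after correction) and *Per1* (-0.29, and -0.31). *Per1* lost the call when F2/metestrus replicate 4 or male replicate 2, 5 or 6 was left out, with adjusted p up to 0.0567. The chaperone gene *Hsp90aa1* was at 0.22 before and after. MHC genes had 6 of 16 higher and 0 lower (median 0.31), with *H2-K1* at 0.35 (adjusted p = 0.0115), but 1 after correction. Interferon-inducible genes had 3 of 20 higher and 0 lower, and 1 higher after correction. The share called higher before correction was near the 13.7% of all genes, so that this list does not stand out. Among the 3 was *Isg15* (0.45, adjusted p = 0.0451), which lost the call when any of 11 libraries was left out in turn.

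Classes of transcripts outside protein-coding genes differed in median. Among loci that GENCODE marks as awaiting experimental proof (TEC), mostly unspliced and lying within or near genes, the median log2 fold change was -0.26, with 145 of 1359 called lower (10.7%, against 12.2% of all genes) and 25 higher (1.84%, against 13.7%). Sense-intronic transcripts had a median of -0.36 and 14 of 131 called lower and 1 higher. These loci were at low counts (median 0.197 and 0.149 CPM) and the correction left the medians at -0.27 and -0.35. The curves of the correction were fitted on genes above 1 CPM, so most of these loci took no part in the fit. Their corrected medians therefore cannot show whether they follow GC content or length. Of the 541 genes called at least 1.5-fold lower, 180 were TEC, sense-intronic, antisense or long intergenic loci and 169 protein-coding. Without strand in the counting, such loci cannot be told apart from reads of the genes around them, and whether strand was used is not stated. Processed pseudogenes had 402 of 2658 called higher (15.1%, near the 13.7% of all genes) and 247 lower (9.29%), and short copies of ribosomal protein genes are among them, *Rpl10-ps5* being one. Of 13 long nuclear RNAs 4 were lower and 0 higher, among them *Miat* (-0.51, adjusted p = 0.00411) and the long host transcript *Snhg14* (-0.38, and -0.05 after correction). *Malat1*, retained in nuclear speckles, was at 303 ± 89.3 and 227 ± 64.2 CPM (SD, n = 9 each, -0.39, adjusted p = 0.0885). The median of this list was -0.24 before and 0.03 after correction.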

How the data were processed

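RNA was measured in 18 samples of dorsal horn, 6 per group. The authors aligned reads to the mouse genome (mm10) with Subread, kept uniquely mapped reads, and counted them per gene with featureCounts; the deposited values are raw counts, 1 column per sample, not normalized. The submitters' processing notes give Subread 2.0.3 and bcl2fastq 2.20.0.422. Whether counting used strand is not given in the sources used here. The labels describe SMART-Seq cDNA with Nextera XT libraries, whereas the methods name a TruSeq kit. A deposited table of the authors' own DESeq2 comparisons (mean, log2 fold change, standard error, statistic, p and adjusted p) was not used.

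Replicate sets were taken from the labels. Genes passing edgeR's filter (minimum count 10) were fitted by quasi-likelihood in edgeR 4.0.16 (R 4.3.3) with TMM factors, group and replicate set as terms, and Benjamini-Hochberg adjustment at 0.05. Exonic length and GC content came from GENCODE vM21 (GRCm38) for 26057 of 26075 genes. The correction added, per library, offsets from splines of GC content, or of GC content and length, with 4 knots per property. The splines were fitted on genes with a mean above 1 CPM and applied to the others as well. Values per library were compared by two-sided exact permutation within groups, adjusted over 9 values. The model was tested on simulated data. It recovered 36.5% of genes changed 1.25-fold and 66.5% of those changed 1.5-fold. With a trend of GC content and length and no changed gene, the uncorrected fit called 6623 of 25693 genes (25.8%). The corrected fit called 0. That trend was set by hand and not fitted to these libraries, so its share of calls cannot be compared with that of the real data. Alternatives used DESeq2 1.42.0 and limma 3.58.1, other scalings, filters and terms, and each library left out in turn. The members and the gene lists were chosen with earlier results of these data known.

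The genes named were the 10 with the largest log2 fold change in each direction among called genes with a mean of at least 1 CPM, no overlap and a symbol that is no clone name. In each list they were the first gene as written and the 3 with the smallest p. For sequences, the protein-coding genes of the first rule with the highest and lowest exonic GC content were taken, chromosome 18 left out, and *Bc1* was added after its values were seen. Chi-square comparisons of counts found no pair of replicates within sampling noise. Depth ranged from 73590509 to 125724156 counts per library. Results for some genes are not reported here.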

Additional observations from a re-analysis of the deposited data

Results flagged for a closer look

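Within each replicate set, 236 sets of 9 values were searched for a lowest or highest library far from the rest, by Dixon's criterion, and 16 were marked (6.78%). Chance marks about 1 in 20 such sets.

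F1/proestrus replicate 5 held both of the most distant values, 126 CPM of *Scn10a*, against 0 to 0.153 CPM in the other libraries of replicates 4 to 6, and 133 CPM of *Avil*, against 0.302 to 0.902 CPM. *Myh1* of skeletal muscle was at 0.489 CPM in male replicate 6, against 0 to 0.221 CPM.

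The count-weighted GC content was 49.7% in F2/metestrus replicate 5, below all other libraries of replicates 4 to 6, which reached 50.2%. F1/proestrus replicate 2 was far from the others of replicates 1 to 3 in *Fry* (136 against 114 to 125 CPM), *Scn2a* (108 against 88.5 to 97.3 CPM), *Mrps21* (11.7 against 14.5 to 16.0 CPM) and *Olig1* (273 against 326 to 378 CPM). In male replicate 2 *Pgam1* was at 58.5 CPM, against 64.6 to 70.2 CPM, and *Per1* at 14.6 CPM, against 10.9 to 12.6 CPM. *Setd1b* was at 0.795 CPM in F2/metestrus replicate 3, against 1.09 to 1.34 CPM, and at 2.68 CPM in male replicate 5, against 1.65 to 2.06 CPM. *Kbtbd11* was at 29.7 CPM in F1/proestrus replicate 3, against 38.6 to 45.9 CPM.

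Male replicate 4 was high in *Pdgfrb* (41.0 against 28.7 to 34.2 CPM) and *Flt1* (54.2 against 38.1 to 46.0 CPM). It also had the highest *Abcc9* of replicates 4 to 6 (18.7 CPM), which was not marked. The vascular genes *Notch3* (14.4 CPM), *Cdh5* (4.60 CPM) and *Bsg* (519.6 CPM) were at or near the medians of replicates 4 to 6 (14.4, 4.53 and 519.6 CPM). *Arid1b* was at 37.7 CPM in male replicate 6, against 45.6 to 53.3 CPM.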

How the results depend on the processing

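Over all groups, the count of genes called stayed within 1.5 times 6751, between 5110 for protein-coding genes fitted alone and 7722 with limma (5604 with GC content and length corrected, 5837 without a filter), and between 5891 and 6922 with 1 library left out. The genes higher ranged from 3106 to 3990 and the genes lower from 2600 to 3206 in the latter fits. Within single groups, with fewer samples, the counts were 77 (21 higher, 56 lower) in F1/proestrus, 781 (235 and 546) in F2/metestrus and 1198 (276 and 922) in males. Higher genes made up 52.9% of the calls, 43.6% without a filter and 42.6% among protein-coding genes fitted alone, where 2176 were higher and 2934 lower. Replicate numbers did not pair the samples (correlations of deviations -0.104 to 0.101 over 18 same-numbered pairs, -0.166 to 0.145 otherwise), and the fit with the number as a replicate block called 6506 genes (3437 higher, 3069 lower).

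The length slope went from -0.0192 to -0.0085 in the joint regression. The difference between the extreme deciles of length went from -0.172 to -0.238 with the longest transcript and to -0.365 among protein-coding genes. With 1 library left out, the length slope ranged from -0.0227 to -0.0167 (no longer past the threshold in 9 of 18 fits), the share of the 10 highest genes from 0.162 to 0.245 percentage points (not past it in 13), the share outside protein-coding genes from -0.220 to -0.157 (not past it in 13), and the total count from -16235029 to -10660939. Reversed log2 fold changes were those of *Snap25* in F1/proestrus alone (-0.042), *Avil* (-0.030) and *Olig2* (-0.008) in males alone, *Fos* in F2/metestrus alone (-0.307) and after correction (-0.012), and, after correction, *Ptprd* (0.056) and *Nlgn1* (0.051). With 1 library left out *Scn10a* ranged from -0.709 to 7.537 and *Avil* from -0.019 to 2.762, the lowest values being those without F1/proestrus replicate 5. The cause was not tested.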

Other observations

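Other gene groups were read in the same fits. Vacuolar ATPase genes, which acidify lysosomes and synaptic vesicles, had 6 of 26 called higher and 2 lower (30.8%, against 25.9% of all genes). Among protein-coding genes 16.6% were called higher and 14.2% lower, so that this list does not stand out. Their median log2 fold change was 0.08 before and 0.06 after correction. Heat shock proteins and chaperones had 2 of 18 higher and 1 lower (16.7%, below the share of all genes). Genes of Wnt and BMP signalling had 3 of 22 in each direction (27.3%, near that share). Host genes of small nucleolar RNAs had 2 of 15 in each direction (26.7%, near the share of all genes), with a median of 0.09 and 9 of 15 positive. Their summed level was 431 to 624 CPM in replicates 1 to 3 and 237 to 511 CPM in replicates 4 to 6. Most of that sum came from *Snhg11* (356 to 537 against 182 to 429 CPM). *Snhg11* was called lower (-0.34), but not after correction (-0.20, adjusted p = 0.247 by edgeR's test). Among cell types, meningeal and perivascular fibroblasts had 1 of 16 lower (6.25%), namely *Pdgfra*, which is also in the list of oligodendrocyte precursors. Red blood cells had 1 of 10 higher (10.0%, *Bpgm* at 0.15), and cartilage and bone 1 of 10 lower (10.0%, *Acan* at -0.44). These shares were below the 25.9% of all genes, and each rests on a single gene. Outside protein-coding genes, antisense loci had 147 of 1845 higher (7.97%) and 160 lower (8.67%). The miRNA loci had 51 of 475 higher (10.7%) and 42 lower (8.84%), and unprocessed pseudogenes 6 of 134 higher (4.48%) and 14 lower (10.4%). All of these shares were below those of all genes, 13.7% higher and 12.2% lower. The median levels of the 3 classes were 0.962, 0.635 and 0.268 CPM, against 5.85 CPM over all genes. Their median log2 fold changes were -0.013, -0.021 and -0.206. At such low counts fewer calls do not show smaller differences.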
